A study of Mus musculus with 3 samples.

Results

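Glucose breakdown and the response to low oxygen were examined through 10 genes in RNA sequencing libraries of whole mouse lung. The genes were chosen by name: Slc2a1, Hk2, Pfkl, Aldoa, Tpi1, Pgk1, Eno1b and Ldha of glycolysis, and Vegfa and Bnip3 of the hypoxia response. Every row of the deposited table whose RefSeq identifier maps to one of these symbols was taken, which gave 22 rows, and all 10 genes had a row among 10761 named genes. There were 2 libraries with deletion of Lin28a and Lin28b (DKO 1 and DKO 2) and 1 wild-type library (WT), all on a mixed C57BL/6J background. In the DKO mice tamoxifen activated a Cre recombinase driven from Nkx2-1, a gene of the lung epithelium, and recombination between loxP sites removed exon 2 of each gene. The labels do not say whether WT carried loxP sites or Cre or was given tamoxifen, and they leave out age and sex. Nothing in them states that DKO 1 and DKO 2 are separate animals. P-values therefore measure only the spread between these libraries, which may be technical. The study concerned the part that Lin28a and Lin28b, RNA-binding proteins that hold back the maturation of let-7 microRNAs, play in lung branching and epithelial differentiation.

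As background, glycolysis takes up glucose, traps it by phosphorylation, splits it into 3-carbon sugars and converts these to pyruvate, which lactate dehydrogenase can turn into lactate. When oxygen is low, the transcription factor HIF-1 escapes destruction and binds short DNA elements near many genes of this pathway and near genes of vessel growth and mitophagy. Lin28 proteins have been linked to glycolytic metabolism in other tissues.

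The values were RPKM (reads per kilobase of transcript, scaled to a common depth). Levels of different genes can be set beside each other only roughly. The transcript lengths used are not stated, some low values may be failed estimates, and reads may be shared between copies of a gene. Depth, inferred from what 1 read was worth among the lowest values, was about 30700000 reads in DKO 1, 34200000 in DKO 2 and 48700000 in WT. Of 16383 transcripts, 2066 averaged 1 RPKM or more over the libraries and entered the test, and 68% were listed at 0 in all 3 libraries. Markers of other cells differed between the libraries. The summed RPKM of 14 erythroid genes with a row was 28715 in DKO 1, 102776 in DKO 2 and 20202 in WT, that of 19 neutrophil and macrophage genes 474, 242 and 84.4, and that of 8 liver genes 11.4, 183 and 7.55. The 15 lung epithelial genes summed to 32.5 in DKO 1, 38.4 in DKO 2 and 417 in WT, mostly through Sftpc, with Nkx2-1, Scgb1a1 and Sftpb listed at 0. Sums of mesenchymal genes ranged from 103 to 148 RPKM, of endothelial genes from 10.5 to 14.5 and of proliferation genes from 382 to 389. Most of the proliferation sum was Pcna, with 222 RPKM in DKO 1, 220 in DKO 2 and 216 in WT. Other proliferation genes varied more, such as Mki67 (7.87, 5.32 and 14.3 RPKM in the same order) and Plk1 (2.06, 4.37 and 1.08 RPKM). The level of Y-linked Eif2s3y was 15 RPKM in DKO 1, 5.07 in DKO 2 and listed at 0 in WT, so sex and genotype cannot be told apart. In bulk tissue fewer cells of a type and less RNA per cell cannot be told apart either.

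The hypoxia response elements are described before the levels, because they are the feature by which these genes are known as a group. The search itself was not made blind to the levels. The HIF core was searched as ACGTG or GCGTG on both strands in the 250 bases before the most upstream start that the RefSeq promoter table holds for each gene (GRCm38.p6, the build of the submitters' mm10). For Ldha and Aldoa that start lies inside the annotated gene, so their windows are not upstream of the whole gene. A promoter was given for 9 of the 10 members, and 6 of them (66.7%) held at least 1 core match. Among 1602 tested genes with a promoter the share was 58.2%, and among all 27025 promoters it was 38.6%. Bnip3 and Ldha had 5 matches each, Slc2a1, Hk2 and Pgk1 had 2 each, Pfkl had 1, and Tpi1, Aldoa and Vegfa had none in this window. CACGTG, which reads as a core on either strand and is also the E-box of Myc and other factors, is counted as 2 matches. It occurred 2 times in Ldha and 1 time in Bnip3. The stretches from 170 to 21 bases before the start of Pgk1 and Bnip3 are shown because these were the members with promoter matches whose levels were highest. Capitals mark the core matches, and a match is a description of letters, not a bound site.
Pgk1, chrX:106186930-106187079, plus strand: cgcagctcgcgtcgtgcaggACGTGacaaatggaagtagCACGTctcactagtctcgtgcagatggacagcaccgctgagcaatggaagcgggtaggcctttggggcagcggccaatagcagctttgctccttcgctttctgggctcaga
Bnip3, chr7:138909527-138909676, minus strand: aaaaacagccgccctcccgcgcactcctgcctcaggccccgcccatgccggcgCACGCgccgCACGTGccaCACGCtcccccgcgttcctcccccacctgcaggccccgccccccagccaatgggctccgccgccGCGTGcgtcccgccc

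Of the 10 genes, 7 had a row with a value and 3 were listed at 0 throughout. All 7 passed the filter on low values, each with 1 row. Tpi1 was the highest in every library, Pgk1 came next and Bnip3 after it. Hk2, Pfkl and Slc2a1 lay between 2.05 and 5.03 RPKM, their order differed between libraries, and their levels overlapped. In WT, Tpi1 was 161st and Pgk1 216th of the 2066 tested transcripts by level. Eno1b stood above Hk2, Pfkl and Slc2a1 in WT and below all of them in both DKO libraries.

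**Figure D1:**
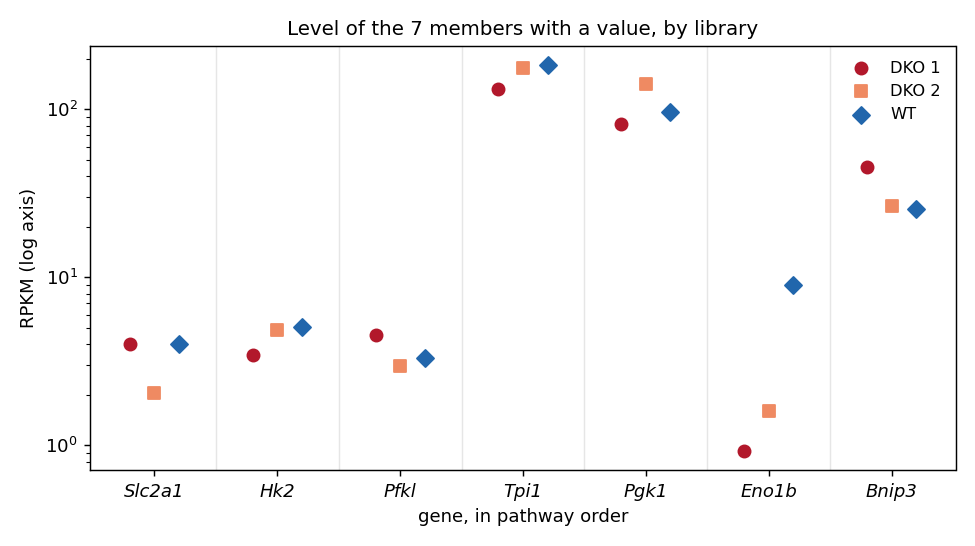
RPKM on a log axis of the 7 genes with a value, in pathway order, with 1 point for each library (DKO 1, DKO 2 and WT). Eno1b is the gene for which WT, at 9.02 RPKM, stands clear of both DKO libraries, at 0.925 and 1.61 RPKM.

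Slc2a1 encodes GLUT1, the main basal glucose transporter of many cells (NM_011400, chromosome 4, 119108745 to 119137330). It had 3.99 RPKM in DKO 1, 2.05 in DKO 2 and 3.98 in WT. DKO 1 and WT were thus nearly equal, and DKO 2 was the low library. From approximate reads the ratio to WT was 1 in DKO 1 (95% exact binomial interval 0.883 to 1.14) and 0.514 in DKO 2 (0.44 to 0.599). All such intervals cover counting error only, and that incompletely, since PCR reads are not independent molecules.

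Hk2, hexokinase 2, phosphorylates glucose and so traps it in the cell (NM_013820, chromosome 6, 82725025 to 82774454). It had 3.46 RPKM in DKO 1, 4.85 in DKO 2 and 5.03 in WT. Its ratio to WT was 0.687 in DKO 1 (0.623 to 0.758) and 0.964 in DKO 2 (0.885 to 1.05). Only the interval of DKO 1 did not reach WT. Pfkl encodes the liver-type subunit of phosphofructokinase, the enzyme of the committed step (NM_008826, chromosome 10, 77986947 to 78009807). It had 4.53 RPKM in DKO 1, 2.96 in DKO 2 and 3.32 in WT, so WT lay between the DKO libraries.

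Tpi1, triosephosphate isomerase, interconverts the 3-carbon sugars made by aldolase (NM_009415, chromosome 6, 124810586 to 124814158). It was the highest member in DKO 1, DKO 2 and WT, with 133, 177 and 183 RPKM in that order. About 6580, 9734 and 14316 reads stood behind these values, and the ratio to WT was 0.729 in DKO 1 (0.708 to 0.751) and 0.968 in DKO 2 (0.943 to 0.993). Hk2 and Tpi1 had nearly the same pair of differences from WT, 0.02 apart on the log2(RPKM + 1) scale. The other tested genes of the same phase of the pathway did not share it. In DKO 1 and DKO 2, Pfkl differed from WT by 0.36 and −0.13, and Gpi1 by −0.10 and 0.66.

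Pgk1, phosphoglycerate kinase 1, makes the pathway's initial ATP and lies on the X chromosome (NM_008828, chromosome X, 106187100 to 106203699). It had 81.3 RPKM in DKO 1, 141 in DKO 2 and 96.8 in WT. WT lay between the DKO libraries, with ratios of 0.839 (0.81 to 0.87) in DKO 1 and 1.46 (1.41 to 1.5) in DKO 2, and neither interval reached WT. The library with the highest Pgk1, DKO 2, was also the one with the highest erythroid sum, and their relation was not tested. A copy annotated as Pgk1-rs7 matches its transcript at 100% identity over 1255 bases, so its reads may be shared.

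Eno1b is a copy of Eno1, the gene of alpha-enolase, which makes phosphoenolpyruvate (NM_001025388, chromosome 18, 48045335 to 48048379). It had 0.925 RPKM in DKO 1, 1.61 in DKO 2 and 9.02 in WT, or about 51, 99 and 787 reads. Both DKO libraries lay far below WT, DKO 1 lower than DKO 2. The ratio to WT was 0.103 in DKO 1 (0.0759 to 0.137) and 0.178 in DKO 2 (0.144 to 0.221). On the log2(RPKM + 1) scale the difference was −2.16 (SE 0.67, limma unadjusted p = 0.00687, adjusted p = 0.71), so it did not pass over all tested transcripts.

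The identity of the reads counted for Eno1b is uncertain. Its transcript matches that of Eno1 at 99.5% identity over 1652 aligned bases, with 9 mismatches and 0 gaps. Another 5 annotated pseudogenes share at least 90% identity over at least 50% of its length. The table held a second row for the same identifier, listed at 0 in all 3 libraries, and the table does not say which genomic placement each row stands for. Eno1 itself was among the listed glycolysis genes but had no row under its own symbol, so no value of it could be set beside Eno1b. The value can therefore hold reads of Eno1, and that part was not tested.

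The members known from the hypoxia response were Bnip3, which had a value, and Vegfa, which was listed at 0. Bnip3 encodes a mitochondrial outer membrane protein that marks mitochondria for mitophagy (NM_009760, chromosome 7, 138890836 to 138909506). It had 45.3 RPKM in DKO 1, 26.7 in DKO 2 and 25.6 in WT. DKO 1 was the high library, at 1.77 times WT (1.67 to 1.88), while the interval of DKO 2 reached WT, at 1.04 (0.979 to 1.12). Its paralog Bnip3l, also a mitophagy receptor, had 44.1 RPKM in DKO 1, 30.2 in DKO 2 and 29.2 in WT, the same order of libraries.

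Over the 7 tested members, 0 passed limma with Benjamini-Hochberg adjustment and 1, Eno1b, had an unadjusted p under 0.05. Over all tested transcripts 2 passed (0.0968%) and 66 had an unadjusted p under 0.05 (3.19%). The adjusted p of the members other than Eno1b was 0.999, with differences from −0.35 (Slc2a1, SE 0.67) to 0.43 (Bnip3, SE 0.78). The SE rests on 1 residual degree of freedom, from the 2 DKO libraries, and mostly on the prior shared by all transcripts (11.2 degrees of freedom), and the fit gives WT the same variance. By side, 3 members lay lower in DKO 1 and DKO 2 than in WT (Hk2, Tpi1 and Eno1b), where 31.0% of all tested transcripts were, and 1 was above WT in both (Bnip3), where 32.1% were. With median scaling, quantile normalization or an equal sum without haemoglobin, Bnip3 in DKO 2 was no longer above WT (0 members above), and Slc2a1 was below WT in both. WT lay between the DKO libraries for 3 (Slc2a1, Pfkl and Pgk1), as for 36.9% of all. With a rule of size, at least 2-fold on this scale in both DKO libraries and these closer to each other than to WT, 1 member was lower (Eno1b), as were 1.50% of all transcripts, and 0 were higher, against 3.19% of all. The median difference was −0.24 over the members and −0.01 over all tested transcripts. The median distance between the DKO libraries was 0.48 for the members and 0.58 for all.

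**Figure D2:**
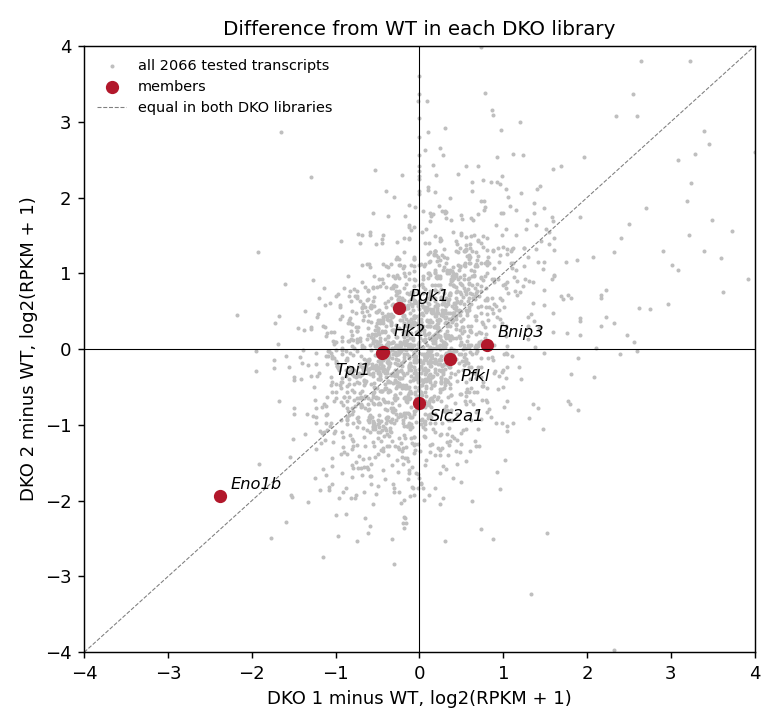
Difference from WT in DKO 1 (horizontal) and in DKO 2 (vertical), log2(RPKM + 1), for all 2066 tested transcripts in grey, of which 10 lie outside the plotted range of −4 to 4, and for the 7 members in red. Eno1b lies at −2.38 and −1.94, near the line of equal difference, while the other 6 lie within the bulk of transcripts.

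For each tested member the transcripts nearest to it in the plane of the 2 differences were looked up among named genes, over 3 libraries. Tpi1 lay nearest to Gadd45g and Hk2, and Hk2 to Tfrc, the transferrin receptor gene, and Tpi1. Pgk1 lay nearest to Mcm3 and Hnrnpul2, Slc2a1 to Pabpc4l, Pfkl to Nrp and Cbr1, and Bnip3 to Mpp1 and Cdh11, all within 0.05 on the log2 scale. Eno1b had no near neighbour. Its closest were Dynlt1f at 0.63 and Mapk12 at 0.83.

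Aldoa, Ldha and Vegfa were listed at 0 in every row and every library. Aldoa encodes aldolase A, which splits fructose bisphosphate (chromosome 7, 126795234 to 126800994, 3 rows). Ldha encodes the lactate dehydrogenase subunit that favours lactate formation (chromosome 7, 46842274 to 46855627, 2 rows). Vegfa encodes the growth factor that guides lung vessels (chromosome 17, 46016993 to 46032377, 9 rows). These 3 were the members with more than 1 RefSeq transcript in the table, and the 7 with a value had 1 each.

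The same was seen across the table. Every row was at 0 for 46.1% of 8099 genes with 1 transcript, for 73.8% of 1540 genes with 2 and for 81.1% of 111 genes with 6 or more. Gapdh, a glycolytic gene used by nearly all cells, had 0.115 RPKM in DKO 1, 0.185 in DKO 2 and 0.0144 in WT, about 5, 9 and 1 reads. It has 147 copies at 90% identity or more, of which 141 are pseudogenes. The part of such copies, or of the number of transcripts, in low values was not tested. An entry of 0 for Aldoa, Ldha or Vegfa can thus be a failed estimate and is no sign that the gene was silent, and no fold is given for them. Such copies also differed between members, with 6 pseudogenes of Ldha and 4 copies of Aldoa at 90% identity or more, and none of Vegfa, Tpi1, Hk2, Pfkl, Slc2a1 or Bnip3.

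**Figure D3:**
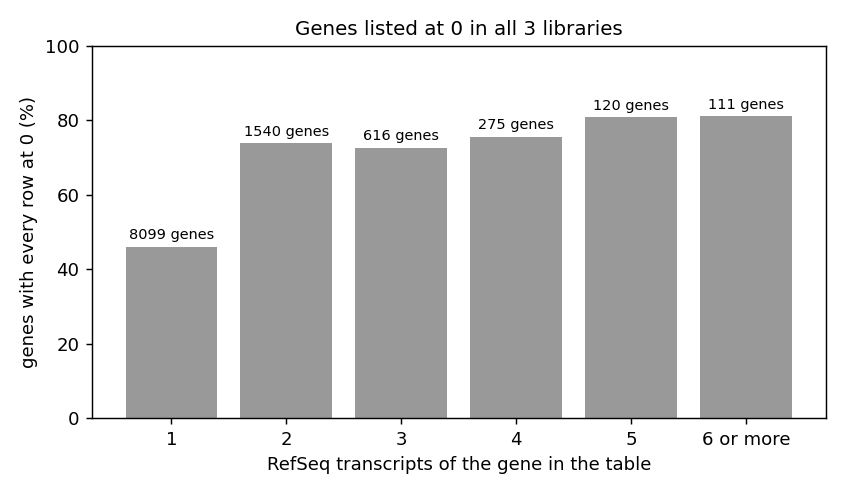
Percent of genes with every row at 0 in DKO 1, DKO 2 and WT (vertical) by how many RefSeq transcripts the table holds for the gene (horizontal), with the number of genes above each bar. The share is 46.1% for genes with 1 transcript and 81.1% for genes with 6 or more.

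The wider pathway was described from lists of 75 glycolysis and 59 hypoxia genes. Of the glycolysis lists 12 transcripts were tested, 0 passed limma and 1 (Eno1b) had an unadjusted p under 0.05, against 3.19% of all tested transcripts. They counted 6 below WT in both DKO libraries, 1 above and 5 with WT between, and their median difference was −0.24. Over all tested transcripts 31.0% were below, 32.1% above and 36.9% had WT between. The 12 include members. With the members left out, 6 transcripts remained, 3 below, 1 above and 2 with WT between, with a median difference of −0.43. Gpi1, which turns glucose 6-phosphate into fructose 6-phosphate, had 13.3 RPKM in DKO 1, 23.3 in DKO 2 and 14.3 in WT. Bpgm, the enzyme of bisphosphoglycerate in red cells, had 6.42 RPKM in DKO 1, 16.6 in DKO 2 and 11.6 in WT. Gyg, the primer of glycogen synthesis, had 77.1 RPKM in DKO 1, 162 in DKO 2 and 68.2 in WT. Of the 12 tested glycolysis transcripts, Gpi1, Bpgm, Gyg and the member Pgk1 were highest in DKO 2, Slc2a1 and Pfkl in DKO 1, and the others in WT. How all tested transcripts divide by highest library was not counted, so no pattern is read from this division. Gpi1 and Bpgm are named because of their values. Haemoglobin took 7.24% of the summed RPKM in DKO 1, 21% in DKO 2 and 5.36% in WT. Its share of estimated reads was smaller, 1.83% in DKO 1, 6.59% in DKO 2 and 1.29% in WT. The part of red cells in these levels was not tested.

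Of 18 listed genes that handle lactate and pyruvate, 8 had a row, 3 of these were at 0 throughout and 3 were tested. All 3 tested transcripts were below WT in both DKO libraries, as were 31.0% of all tested transcripts, with a median difference of −0.99, and 0 passed limma or had an unadjusted p under 0.05. Slc16a1, the monocarboxylate transporter MCT1, had 2.91 RPKM in DKO 1, 1.37 in DKO 2 and 5.85 in WT (log2 difference −1.17, SE 0.67, limma adjusted p = 0.999). Ldhb, the lactate dehydrogenase subunit of oxidative tissues such as heart, had 41.8 RPKM in DKO 1, 31.6 in DKO 2 and 73.5 in WT. A pseudogene matches the Ldhb transcript at 98.0% identity over 1002 bases, so its reads may be shared. The summed RPKM of 12 heart and skeletal muscle genes with a row was 19.5 in DKO 1, 119 in DKO 2 and 29.4 in WT. Lung epithelial genes were also lower, with 7 of 9 tested transcripts below WT in both DKO libraries, against 31.0% of all, and the sums given above. The part of muscle or of epithelium in these levels was not tested. Pdha1, a pyruvate dehydrogenase subunit encoded on the X chromosome, had 4.68 RPKM in DKO 1, 4.74 in DKO 2 and 8.43 in WT. The ratios to WT of these 3 genes ranged from 0.235 (Slc16a1 in DKO 2) to 0.569 (Ldhb in DKO 1), and none of their intervals reached WT. Ldha, the other subunit gene of the same enzyme, gave no value to set beside Ldhb.

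**Figure D4:**
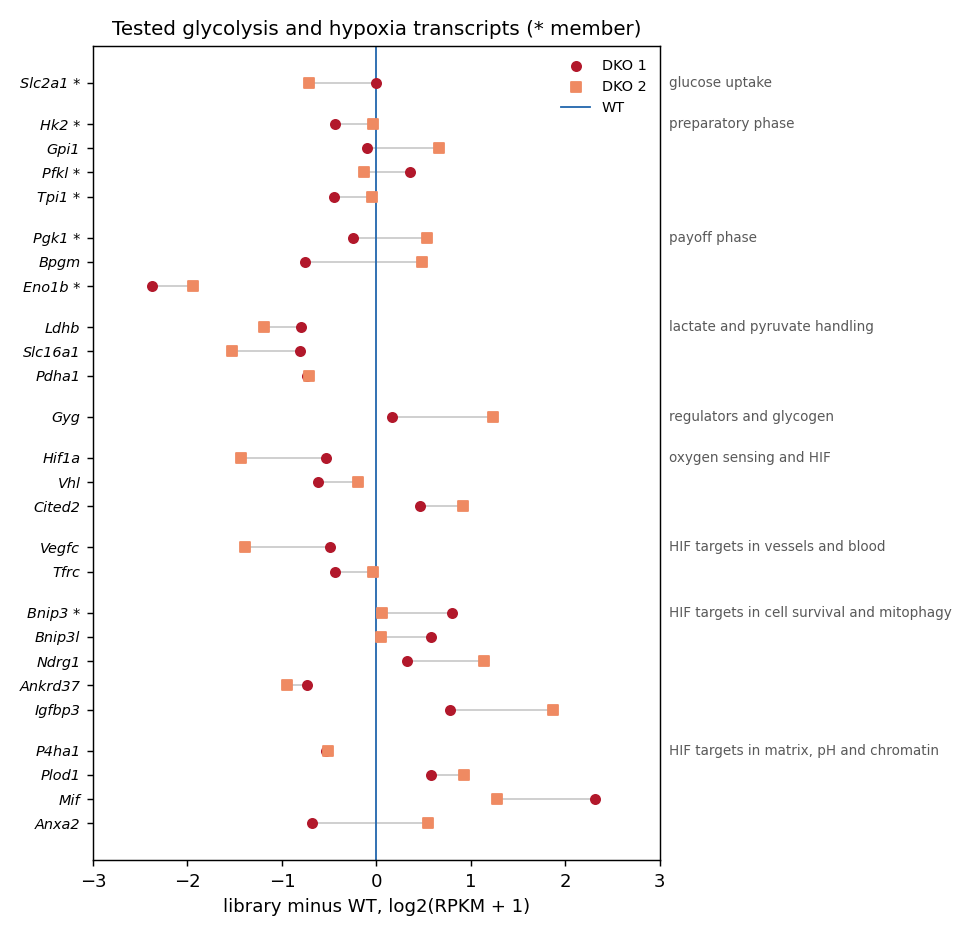
Difference from WT in DKO 1 (circles) and DKO 2 (squares), log2(RPKM + 1), of each tested transcript of the glycolysis and hypoxia lists, grouped by role, with WT as the line at 0 and members starred. The 3 lactate and pyruvate genes lie left of WT in both DKO libraries, while the hypoxia genes lie on either side.

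Of the hypoxia lists 14 transcripts were tested, and 0 passed limma, while 1 (Mif) had an unadjusted p under 0.05, against 3.19% of all tested transcripts. They split into 7 above WT in both DKO libraries, 6 below and 1 with WT between, with a median difference of 0.12. Over all tested transcripts 32.1% were above, 31.0% below and 36.9% had WT between. Under the 3 other scalings 5 of the 14 were above and 6 below. With the member Bnip3 left out of the reported fit, 6 were above and 6 below, with a median difference of −0.07. Among the sensors, Hif1a, the oxygen-regulated subunit of HIF-1, had 6.05 RPKM in DKO 1, 2.75 in DKO 2 and 9.14 in WT. Vhl, which targets that subunit for destruction, had 3.16, 4.62 and 5.41 RPKM in the same order. Cited2, a target that dampens HIF-1 activity, had 6.54 RPKM in DKO 1, 9.37 in DKO 2 and 4.46 in WT. Hif1a and Vhl were thus below WT in both DKO libraries and Cited2 above it.

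HIF targets lay on both sides of WT. Of 5 tested targets of cell survival and mitophagy, 4 were above WT in both DKO libraries, as were 32.1% of all tested transcripts. Of these 4, Bnip3 and Bnip3l were not above under those 3 scalings. The others were Igfbp3, an IGF-binding protein, with 2.24 RPKM in DKO 1, 5.93 in DKO 2 and 0.891 in WT, and Ndrg1, with 0.981, 2.49 and 0.583 RPKM in the same order. Ankrd37, a small ankyrin-repeat gene, was the exception, with 17.7 RPKM in DKO 1, 15.1 in DKO 2 and 30.1 in WT. The 2 tested vessel and iron genes were below WT in both, as were 31.0% of all tested transcripts. They were the lymphatic growth factor Vegfc (2.3, 0.777 and 3.66 RPKM) and Tfrc (3.75, 5.29 and 5.42 RPKM).

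Among the matrix and other targets, the collagen-modifying enzymes P4ha1 and Plod1 lay on opposite sides of WT. P4ha1, a prolyl hydroxylase subunit, had 3.39 RPKM in DKO 1, 3.44 in DKO 2 and 5.33 in WT. Plod1, a lysyl hydroxylase, had 2.35 RPKM in DKO 1, 3.28 in DKO 2 and 1.24 in WT. Mif, a cytokine that many cells make and that HIF-1 can induce, had 1984 RPKM in DKO 1, 964 in DKO 2 and 397 in WT (log2 difference 1.80, SE 0.79, limma unadjusted p = 0.042, adjusted p = 0.999). It was the hypoxia transcript that met the 2-fold rule, which 3.19% of all tested transcripts met in the same direction. Mif has 5 near-identical pseudogenes, so its reads may be shared. The neutrophil and macrophage sum had the same order of libraries as Mif, but single genes in it differed. Tyrobp, the highest, had that order, with 219 RPKM in DKO 1, 52.3 in DKO 2 and 24.9 in WT. S100a8 was highest in DKO 2, with 72.2, 108 and 3.04 RPKM in the same order of libraries. Genes outside the hypoxia, neutrophil and macrophage lists also had the order of Mif. Examples, again as DKO 1, DKO 2 and WT, were Cox6a1 (7940, 2410 and 851 RPKM) and Cox8a (5300, 1240 and 503 RPKM). Others did not, such as Cox4i1 (55.4, 673 and 138 RPKM). How often that order occurs was not counted, and the relation of Mif to any of these genes was not tested.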

How the data were processed

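Total RNA was extracted with Trizol and amplified with the SMARTer Ultra Low Input kit, per the labels' protocols. Tools named in the submitters' processing notes are cutadapt, TopHat2, HTSeq and edgeR, with build mm10 and no versions. RPKM of 16383 RefSeq transcripts was deposited, 1 column per library; the scaling total, transcript lengths and strand setting are not stated, so overlapping and antisense genes are uncertain. Symbols came from RefSeq (16151 transcripts) and GENCODE M21 (77), with 155 unnamed. Log2(RPKM + 1) was fitted with limma 3.58.1 in R 4.3.3 (trended empirical Bayes, two-sided, Benjamini-Hochberg over 2066 transcripts, threshold 0.05, 1 residual degree of freedom, prior 11.2). RPKM times GENCODE length gave approximate reads: 45.2%, 44% and 45.6% of low values in DKO 1, DKO 2 and WT lay within 0.05 of a whole read. Copies were sought with blastn against GENCODE transcripts. The members and lists were chosen with earlier results of these data known. From each pathway list the text names the tested transcripts with the 2 largest and 2 smallest differences if both DKO libraries were on 1 side of WT, all members and Gapdh. A single pattern neighbour is not reported here. Gpi1 and Bpgm were added after their values were seen. The alternatives were other pseudocounts, filters, scalings and moderation, and leaving out each DKO library.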

Additional observations from a re-analysis of the deposited data

How the results depend on the processing

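No member passed limma in the fit as reported or under any of 9 alternatives that allow a test, and the lowest adjusted p was 0.17 (Eno1b, median scaling). No paired analysis was possible because WT was a lone library. The difference of Eno1b ran from −2.78 to −1.16 over the alternatives in which it was tested. Over all transcripts, 2 passed as reported, against 13 with a pseudocount of 0.1 RPKM, 1 with a pseudocount of 5 RPKM, 0 without a filter, 10 with a filter at 5 RPKM, 16 with median scaling, 14 with an equal sum without haemoglobin and 0 with quantile normalization. The member above WT in both DKO libraries, Bnip3, was no longer so with median scaling, quantile normalization or an equal sum without haemoglobin (0 members in each). With a filter at 5 RPKM fewer transcripts were tested, and 1 member, 3 glycolysis and 2 hypoxia transcripts were below WT, with 4 hypoxia transcripts above. Without a filter 5 glycolysis and 13 hypoxia transcripts were above WT and 11 hypoxia transcripts below. Leaving out a DKO library gave 4 to 5 members below WT and 2 to 3 above, 3 to 4 glycolysis transcripts above, and differences from −0.13 to 0.36 for Pfkl and from −0.25 to 0.54 for Pgk1, where the reported values were 0.12 and 0.14. These follow from which side of WT the remaining library lay on. What fold difference 1 WT library could detect was not measured.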
